A study of Bos taurus with 6 samples.

Results

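Genes that mark or guide the hypoblast were followed in bovine embryos on the Affymetrix Bovine Genome Array, which reads each transcript with a probe set, that is, several short probes summarised as 1 value. The 9 genes were GATA4 (NCBI gene 327716), GATA6 (654400), SOX17, PDGFRA (282301), FGFR1 (281768), FGFR2 (404193), DAB2 (509221), FOXA2 and SPARC (282077), and every probe set that the array annotation assigns to one of these symbols was kept. This gave 15 of the 24036 probe sets, for 7 of the 9 genes, on an array where 9155 genes had a probe set of their own. No probe set carried the symbol SOX17 or FOXA2 in the annotation used here, so these transcription factors were not analysed here.

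All embryos were made by in vitro fertilization of oocytes matured outside the cow, grown in synthetic oviductal fluid, and had compacted by the first inspection. On day 8 embryos with a blastocoele and a clear inner cell mass were taken as blastocysts, and those that had failed to pass from morula to blastocyst were taken as late degenerative embryos. Each group had 3 pools, A, B and C, of 20 embryos, and each pool went on an array of its own. A pool mixes the embryos of several cows and bulls and holds whole embryos, with no separation of cell types. Values are log2 expression from GCRMA and run from a floor of 2.12 to 16.12. A difference is always degenerative embryos minus blastocysts.

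The hypoblast, or primitive endoderm, is the layer that separates from the epiblast within the inner cell mass and goes on to line the yolk sac. FGF signals, received by FGF receptors and passed on through the ERK cascade, direct inner cell mass cells toward it, with GATA6 acting early and SOX17, GATA4 and FOXA2 later. PDGFRA is a receptor that marks these cells, DAB2 is an endocytic adaptor needed to organise the endoderm as an epithelium, and SPARC is a matrix glycoprotein secreted in large amounts by parietal endoderm. Several of these genes are not confined to the hypoblast: DAB2 and FGFR2 are also used by trophectoderm, and SPARC by many cells. In pools of whole embryos, fewer cells of a type and less RNA per cell cannot be told apart.

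GATA6 and PDGFRA lay close to equal in the group means, SPARC and GATA4 had higher means in degenerative embryos, and DAB2 and FGFR2 had lower means. None of the 10 probe sets that varied over the arrays passed limma at an adjusted p of at most 0.15, a level reached by 0.0211% of the 18937 probe sets tested. By SAM, the test of the study's methods, none was called at a false discovery rate of 15%, where 0.354% of all probe sets were called. SPARC and DAB2, 2 of the 10, had an unadjusted limma p under 0.05, as had 8.61% over the whole array. The groups did not overlap for 1 probe set that was higher (SPARC) and for 2 that were lower (DAB2 and FGFR2), and the share over all probe sets was 6.48% for higher and 8.93% for lower ones. With 3 pools against 3, an exact permutation test of a single probe set cannot go below p = 0.1. Of the 10 probe sets, 6 were higher and 4 lower, with a median difference of 0.0024, against 0.0013 over all probe sets tested. However, 4 of the 10 had both group means under 5, and all of these counted as higher. The count and the median therefore rest largely on signals near the floor. Above that range GATA4 and SPARC were higher, and GATA6, PDGFRA, DAB2 and FGFR2 were lower, the first 2 of these by very little. These values describe the pools and establish no difference between the groups for any of the 7 genes.

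**Figure D1:**
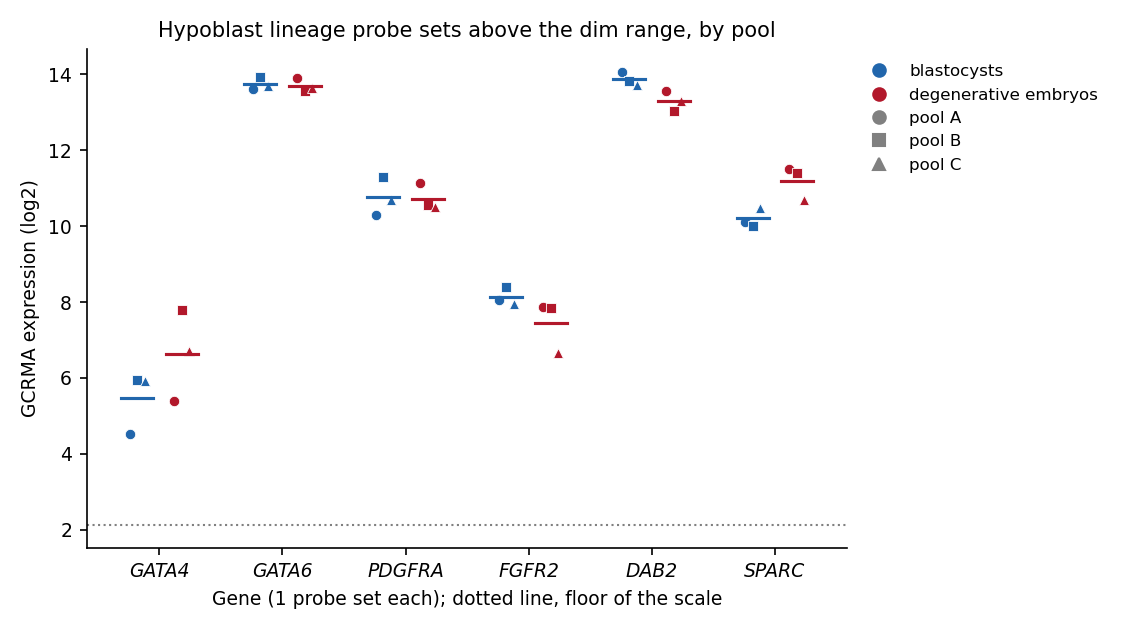
The vertical axis gives log2 GCRMA expression for the 6 hypoblast lineage probe sets with a group mean of at least 5. Each point is a pool of 20 embryos, shaped by pool letter, horizontal lines mark group means, and the dotted line is the floor at 2.12. SPARC lies higher and DAB2 and FGFR2 lie lower in all 3 degenerative pools than in any blastocyst pool, whereas the pools of GATA4, GATA6 and PDGFRA overlap.

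Among the transcription factors, GATA6 had a single probe set with a strong and steady signal. The blastocyst pools A, B and C were at 13.62, 13.94 and 13.69, and the degenerative pools at 13.90, 13.56 and 13.65. Blastocyst pool B was the highest and degenerative pool B the lowest, and the groups overlapped throughout. Degenerative embryos differed by -0.05 (limma adjusted p = 0.931, standard error 0.13), with a 95% confidence interval from -0.40 to 0.30. In folds, this interval runs from 0.758 to 1.23, so a change of GATA6 by a factor of 2 lies outside it. Its sign turned without the B pool of either group.

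GATA4, a second GATA factor, which acts later in the endoderm and is also a factor of gonadal somatic cells, was dimmer and far more variable on its only probe set. It was at 4.52, 5.94 and 5.92 in blastocyst pools A, B and C and at 5.40, 7.80 and 6.70 in degenerative pools A, B and C. Degenerative pools B and C lay above all blastocyst pools, while degenerative pool A lay below blastocyst pools B and C. The A pool was the lowest of both groups. Degenerative embryos differed by 1.17 (limma adjusted p = 0.718, standard error 0.77, 95% confidence interval -0.86 to 3.20), and it was 0.59 without degenerative pool B and 1.79 without degenerative pool A. The spread within groups, a pooled SD of 1.03, was exceeded by that of 9.64% of the probe sets tested, for which the median SD was 0.378.

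The pool letters come from the sample titles, and neither the labels nor the methods say that same-letter pools were matched. A comparison by letter is therefore a description and not a paired design. Compared in this way, degenerative pools were higher in GATA4 by 0.88 for A, 1.85 for B and 0.78 for C. With the letter as a replicate block, the standard error dropped to 0.30 and the unadjusted limma p to 0.0338, but the adjusted p was 0.513. In the same fit the unadjusted limma p was 0.0687 for SPARC, no longer under 0.05, and 0.0138 for DAB2. A common sign in all 3 letters was found for 4 of the 10 probe sets (GATA4 and SPARC higher, DAB2 and FGFR2 lower), against 34.0% over the whole array.

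**Figure D2:**
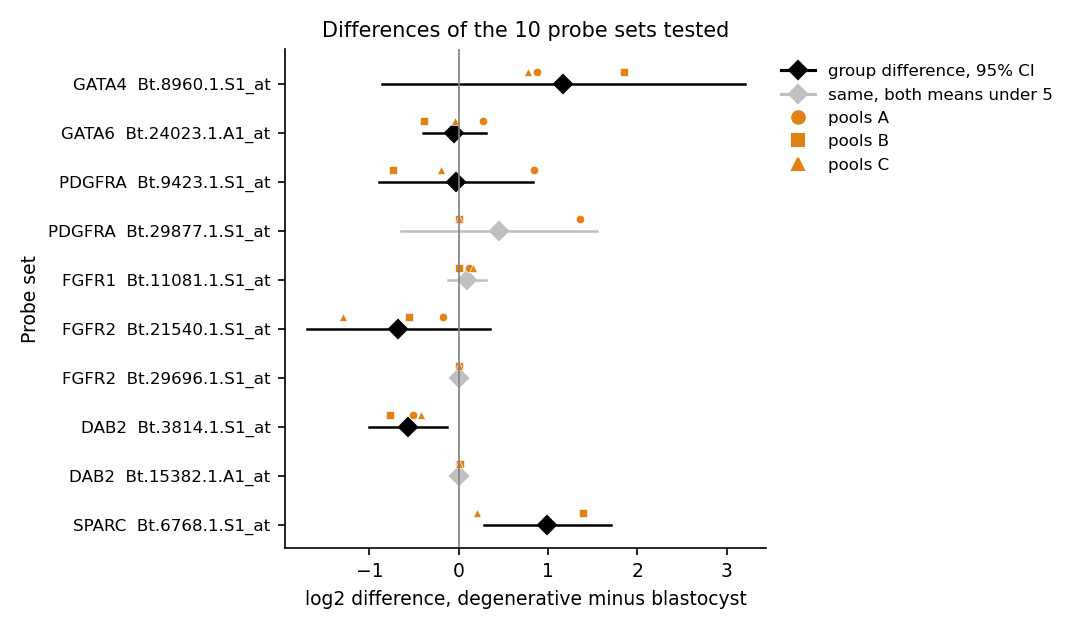
The log2 difference, degenerative minus blastocyst (horizontal axis), of the 10 hypoblast lineage probe sets tested. Diamonds and bars are limma estimates with 95% confidence intervals, grey where both group means lie under 5, and orange symbols are the differences of same-letter pools. The intervals of SPARC and of the bright DAB2 probe set leave out 0 before any adjustment, and the interval of GATA4 is the widest.

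Of the receptors, PDGFRA was best read by the brightest of its 3 probe sets, at 10.29, 11.29 and 10.69 in blastocyst pools A, B and C and at 11.14, 10.55 and 10.49 in degenerative pools A, B and C. The extremes, 10.29 and 11.29, were both blastocysts. The mean difference of -0.03 (limma adjusted p = 1, standard error 0.33, 95% confidence interval -0.89 to 0.84) turned its sign with centred arrays, without blastocyst pool B (0.24) and without degenerative pool B or C. The remaining probe sets of PDGFRA were near the floor: the first was at 2.14 in every pool but degenerative pool A, where it was at 3.50, and the second was at 2.12 in all 6 pools.

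FGFR2, a receptor of FGF ligands, had a single informative probe set of 5. Blastocyst pools A, B and C were at 8.06, 8.40 and 7.95, and degenerative pools A, B and C at 7.88, 7.84 and 6.66. All degenerative pools were lower, but pool A lay just under the lowest blastocyst pool and pool C carried most of the difference. The mean difference was -0.68 (limma adjusted p = 0.677, standard error 0.39, 95% confidence interval -1.70 to 0.35), and -0.28 without degenerative pool C. With centred arrays the groups overlapped, and 2 probe sets instead of 3 were left without overlap. The other 4 probe sets of FGFR2 lay between 2.12 and 2.14 in every pool.

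FGFR1, the FGF receptor that inner cell mass cells share, could not be judged. The first of its probe sets was at 2.12 on all 6 arrays, and the second ran from 2.12 to 2.26 in blastocysts and from 2.23 to 2.43 in degenerative embryos (difference 0.09, limma adjusted p = 0.737). Signals this near the floor give no measure of the transcript.

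DAB2, on the brighter of its 2 probe sets, was at 14.07, 13.82 and 13.73 in blastocyst pools A, B and C and at 13.56, 13.05 and 13.31 in degenerative pools A, B and C. Every degenerative pool was below every blastocyst pool, with the narrowest gap between degenerative pool A and blastocyst pool C. It was lower by a mean of -0.57 (standard error 0.17, unadjusted p = 0.0220 and adjusted p = 0.532 by limma, between 0.192 and 0.863 over 13 other settings), and SAM gave a permutation p of 0.0137. The dimmer probe set lay at the floor, at 2.12 to 2.14.

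SPARC, with a single probe set, was at 10.11, 10.01 and 10.49 in blastocyst pools A, B and C and at 11.50, 11.40 and 10.69 in degenerative pools A, B and C. Degenerative pools A and B stood about equally high, while pool C was close to blastocyst pool C. The difference was 0.99, or 1.99-fold (standard error 0.27, 95% confidence interval 0.28 to 1.71). The unadjusted limma p was 0.0165 and the adjusted p 0.514, between 0.243 and 0.863 over 13 other settings. The SAM p, ranked over all probe sets together, was 0.0107. Without any single pool the difference stayed between 0.84 and 1.25. Over all probe sets tested, 11.0% differed by more than SPARC in either direction, and 7.63% by more than GATA4.

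**Figure D3:**
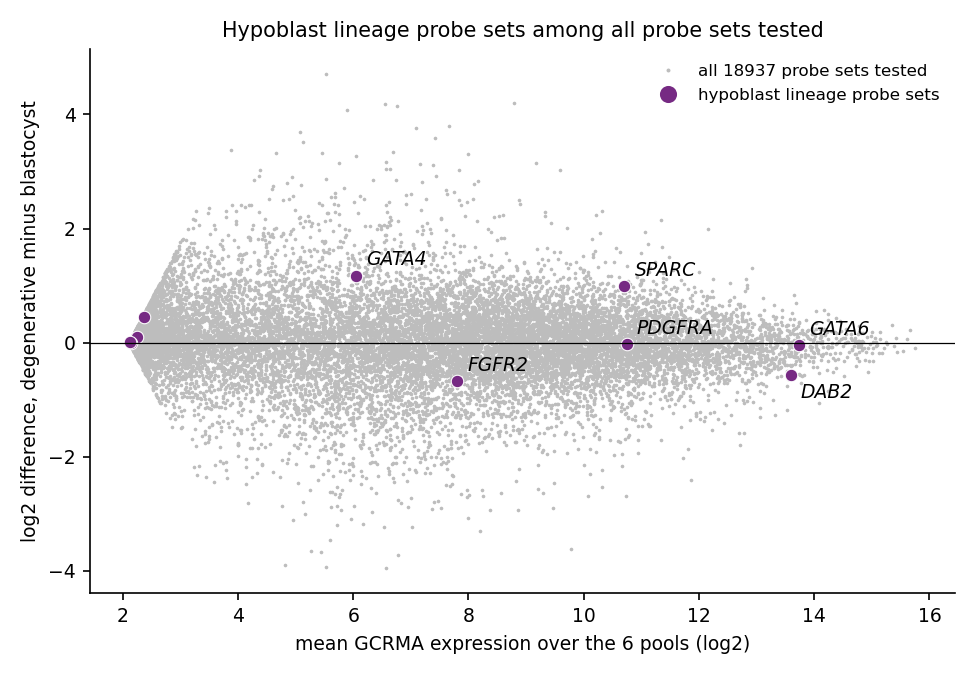
Log2 difference, degenerative minus blastocyst (vertical axis), against mean GCRMA expression over the 6 pools (horizontal axis, log2) for all 18937 probe sets tested (grey) and the 10 hypoblast lineage probe sets (purple, named where the mean is at least 5). The hypoblast lineage probe sets lie within the grey cloud, and the 4 unnamed ones crowd at its dim end, where differences are compressed.

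Genes listed as markers of other lineages were read with a single probe set per gene, that with the highest mean. The pools held whole embryos, so which cells gave these values was not measured, and a listed gene may be active in more than its own layer. Over all 8175 genes tested in this way, 18.2% had no overlap between the groups, 10.3% had an unadjusted limma p under 0.05, and the median difference was 0.02. Of 6 epiblast and inner cell mass markers with a probe set, 5 were higher in degenerative embryos, none passed limma over all probe sets and the median difference was 0.52. POU5F1 was at 12.51 ± 0.15 (SD, n = 3) in blastocysts and 12.99 ± 0.34 in degenerative embryos, with no overlap. SOX2 was at 7.74 ± 0.34 and 8.77 ± 0.72, and KLF4, also without overlap, at 13.36 ± 0.04 and 13.87 ± 0.45. The mean of the list was 9.57 to 9.80 in blastocyst pools and 10.87, 9.92 and 9.77 in degenerative pools A, B and C, so pool A, which had the lowest array weight, carried most of the shift and pool C lay within the blastocyst range. NANOG, the epiblast factor that opposes GATA6, had no probe set under its symbol.

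Of 18 trophectoderm markers tested, 14 were lower in degenerative embryos, with a median of -0.58. An unadjusted limma p under 0.05 was found for 5, namely 4 lower and 1 higher, against 10.3% of all genes tested. TFAP2A, a transcription factor of trophectoderm, was at 8.97 ± 0.28 (SD, n = 3) in blastocysts and 6.08 ± 1.15 in degenerative embryos. PAG2, a pregnancy-associated glycoprotein of trophoblast, was at 13.06 ± 0.10 and 10.65 ± 1.59, the desmosomal cadherin DSC2 at 12.99 ± 0.25 and 11.46 ± 0.72, and the prostaglandin synthase PTGS2 at 13.78 ± 0.40 and 12.78 ± 0.19. KRT18, a keratin of the same layer, differed by -0.06. None of these passed limma over all probe sets. AQP3, a water channel and the 1 marker with a higher value at an unadjusted p under 0.05, differed by 0.91 with no overlap. The mean of the list was 9.09 to 9.50 in blastocyst pools and 7.94, 9.12 and 8.84 in degenerative pools A, B and C, so pool A stood apart and pool B lay within the blastocyst range. KRT19, the interferon IFNT2 and PAG11 were low mainly in degenerative pool A. TFAP2A, at 4.78 in pool A against 6.98 and 6.47, was also lowest there. DAB2 and FGFR2, which trophectoderm also uses, had their highest degenerative values in pool A. This is a single array, the one with the lowest array weight, so no conclusion is drawn from it. The part of trophectoderm in the differences of DAB2 and FGFR2 was not tested.

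GATA6 served as a within-array reference, since the level of a probe set cannot be set against that of another but the change of their difference can. Relative to GATA6, degenerative embryos were higher by 0.53 for POU5F1, 1.08 for SOX2, 0.56 for KLF4 and 1.04 for SPARC, and lower by 2.85 for TFAP2A (a change of -2.85), each with no overlap between the groups. For these 5 comparisons the exact two-sided permutation p was 0.1, the smallest that 3 pools against 3 allow, and 0.167 after Benjamini-Hochberg adjustment over 10 gene pairs, which were chosen with the values known. The change relative to GATA6 was 0.02 for PDGFRA and -0.01 for KRT18, both with an exact permutation p of 1. It was 1.22 for GATA4 (exact permutation p = 0.3) and -0.63 for FGFR2 (exact permutation p = 0.2), and the groups overlapped for both. The last pair, SPARC relative to DAB2, changed by 1.56 with no overlap, as each of these genes had none alone. GATA6 itself differed by -0.05, so the changes relative to GATA6 nearly repeat the difference of each gene alone and add no separate support. The share of all genes without overlap relative to GATA6 was not counted.

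Beyond the 9 genes, a list of 37 further hypoblast and extraembryonic endoderm genes had 26 with a probe set and 20 that could be tested, of which 13 were higher, 7 were lower and none passed limma over all probe sets. The median difference was 0.16, a single gene had an unadjusted p under 0.05 and the same gene alone had no overlap. It was DPP4, a peptidase of the cell surface, at 8.60 ± 0.34 (SD, n = 3) in blastocysts and 7.68 ± 0.45 in degenerative embryos. Next came APOE, an apolipoprotein, with a difference of 0.81 (adjusted p = 0.586 from limma), COL4A1, a basement membrane collagen, with 0.62 (adjusted p = 0.625), and SERPINH1, a chaperone of collagens, with 2.30 (adjusted p = 0.734). SERPINH1 ran from 2.78, near the floor, to 7.82 in blastocysts and from 5.91 to 9.47 in degenerative embryos. Its 95% confidence interval was -2.03 to 6.62, so the size is uncertain.

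Basement membrane genes, which the endoderm secretes together with SPARC, did not share a direction. The collagen COL4A1 was higher in degenerative embryos, with a difference of 0.62, while the nidogens NID1 and NID2 differed by -0.78 and 0.18. The laminin chains LAMB1 and LAMC1 hardly differed, by -0.03 and -0.04, and fibronectin, FN1, differed by 0.23. HNF4A, a factor of visceral endoderm, was dim at 4.63 ± 0.60 in blastocysts and 4.78 ± 0.31 in degenerative embryos. AFP, APOA2, CUBN and KDR were at the floor in all pools, while APOA1 was at 13.25 ± 0.07 and 13.38 ± 0.75. SOX7, OTX2 and CER1 had no probe set under their symbols.

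On the side of the signal, a list of 40 FGF and ERK genes had 24 with a probe set and 22 tested, with 15 higher, 7 lower and a median of 0.13. None passed limma over all probe sets. An unadjusted p under 0.05 was found for 7 of the 22, 4 higher and 3 lower, and the same 7 had no overlap between the groups. Over all 8175 genes tested in the same way, 10.3% had such a p and 18.2% had no overlap. FGF2, an FGF ligand, was dim in blastocysts at 2.53, 3.38 and 3.79 in pools A, B and C and was at 5.40, 4.80 and 5.69 in degenerative embryos. Its difference of 2.06 (limma adjusted p = 0.451, standard error 0.42) is set against blastocyst signals close to the floor, where the scale is compressed, so its size is uncertain. FGF1, another ligand, was at 10.52 ± 0.70 (SD, n = 3) and 12.19 ± 0.64, and FGF4, the ligand made by the epiblast, had no probe set under its symbol.

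FGFR4, a further receptor, was at 7.79 ± 0.26 in blastocysts and 9.04 ± 0.85 in degenerative embryos. The difference was 1.24 (limma adjusted p = 0.580, 95% confidence interval 0.006 to 2.48), against -0.68 for FGFR2. Degenerative pool C (8.15) was close to blastocyst pool C (8.07) for FGFR4, whereas pool C carried most of the difference of FGFR2. EGR1, a transcription factor switched on by ERK activity, was at 9.18, 8.93 and 9.75 in blastocysts and at 10.45, 11.04 and 10.30 in degenerative embryos (difference 1.31, limma adjusted p = 0.479). FOS, also an early target of ERK, differed by 0.44 and overlapped. The inhibitor SPRY2 differed by 0.20.

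Lower values were found for GAB1, an adaptor of receptor tyrosine kinases, at 10.17, 9.98 and 9.96 in blastocysts and 6.47, 8.08 and 8.27 in degenerative embryos. Its difference of -2.43 (limma adjusted p = 0.470) passed at an adjusted p of 0.102 without degenerative pool A and of 0.147 with array weights. Those settings called 42 and 57 probe sets over the whole array, against 4 in the main fit. NRAS differed by -0.41 and RASA1, a brake on Ras, by -0.95. The kinases that follow, MAP2K1 and MAPK3, differed by -0.26 and -0.87, and both overlapped. Of the PDGF ligands and receptors listed, none but PDGFRB and PDGFRL had a probe set, and PDGFRB was at 2.23 in all pools.

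**Figure D4:**
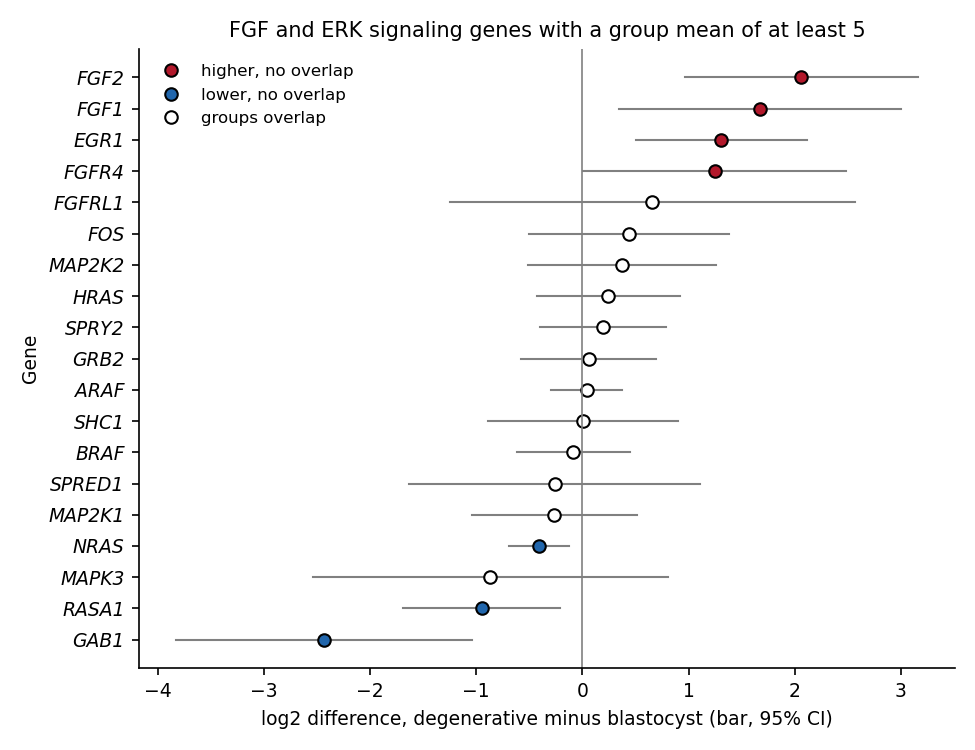
Log2 difference, degenerative minus blastocyst (horizontal axis), of the 19 FGF and ERK signaling genes with a group mean of at least 5, with 95% confidence intervals from limma before adjustment. FGF2 and FGFRL1 reach that mean only in the degenerative group. Red and blue circles mark the 7 genes whose groups did not overlap, FGF2, FGF1, EGR1 and FGFR4 above 0 and NRAS, RASA1 and GAB1 below it, and open circles mark genes that overlapped. Over all 8175 genes tested, 18.2% had no overlap.

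Among 10 relatives and partners of the hypoblast factors with a probe set, 9 were tested, 7 were higher, none passed and none had an unadjusted p under 0.05 or no overlap. FOXA3, a relative of FOXA2, had the smallest p at a difference of 0.34 on dim signals (2.64 ± 0.17 and 2.98 ± 0.16). SPARCL1, a relative of SPARC, was near the floor in blastocysts, at 2.12, 2.40 and 2.40, and at 4.16, 5.60 and 2.39 in degenerative embryos, where pool C was within the blastocyst range. No size is drawn from its difference, since the blastocyst signals give no measure of the transcript. SMAD4 differed by -0.32 and SMAD3 by 0.69.

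Some genes of the other lists shared with GATA4 a low value in degenerative pool A and a high one in degenerative pool B. No other gene named in this paragraph had the full pool order of GATA4. Of the list of 19 cumulus and granulosa cell markers, the follicular cells that surround the oocyte and in which GATA4 is also active, the mean log2 value was lowest in the A pools, at 4.93 for blastocysts and 4.84 for degenerative embryos. It was 5.38 and 6.02 in blastocyst pools B and C and 6.38 and 6.06 in degenerative pools B and C. Of 17 markers tested, 11 were higher and 6 lower. The list had no member with an unadjusted p under 0.05, and FOXL2, AMH and INHA, which define granulosa cells, were at the floor in every pool. The matrix proteoglycan LUM was at 5.25, 8.40 and 10.15 in blastocysts and at 5.0, 11.07 and 10.95 in degenerative embryos. VCAN, a proteoglycan of the expanded cumulus, differed by 1.58 and INHBA, an activin subunit, by 2.51, the latter with no overlap and with degenerative pool A (8.70) above pool C (7.84). The steroid enzymes HSD3B1 and CYP19A1 went the other way, by -2.16 and -2.08, as did TNFAIP6, by -0.82, and FSHR, the receptor of follicle-stimulating hormone, by -0.52. HSD3B1 was low mainly in degenerative pool A, at 6.12 against 11.52 in B and 11.12 in C. CYP19A1 was at 2.6 in blastocyst pool A, as dim as the degenerative pools (2.55 to 2.75), so its difference rests on blastocyst pools B and C. The endoderm genes BMP2, SERPINH1 and FST were likewise lowest in the A pool within each group and highest in degenerative pool B. Other genes of the same lists ran otherwise. The cumulus marker HAS2 was at 11.81, 10.55 and 9.92 in degenerative pools A, B and C, and the endoderm gene COL4A1 at 12.44, 11.98 and 11.44. The part of follicular cells in the values of GATA4 was not tested.

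**Figure D5:**
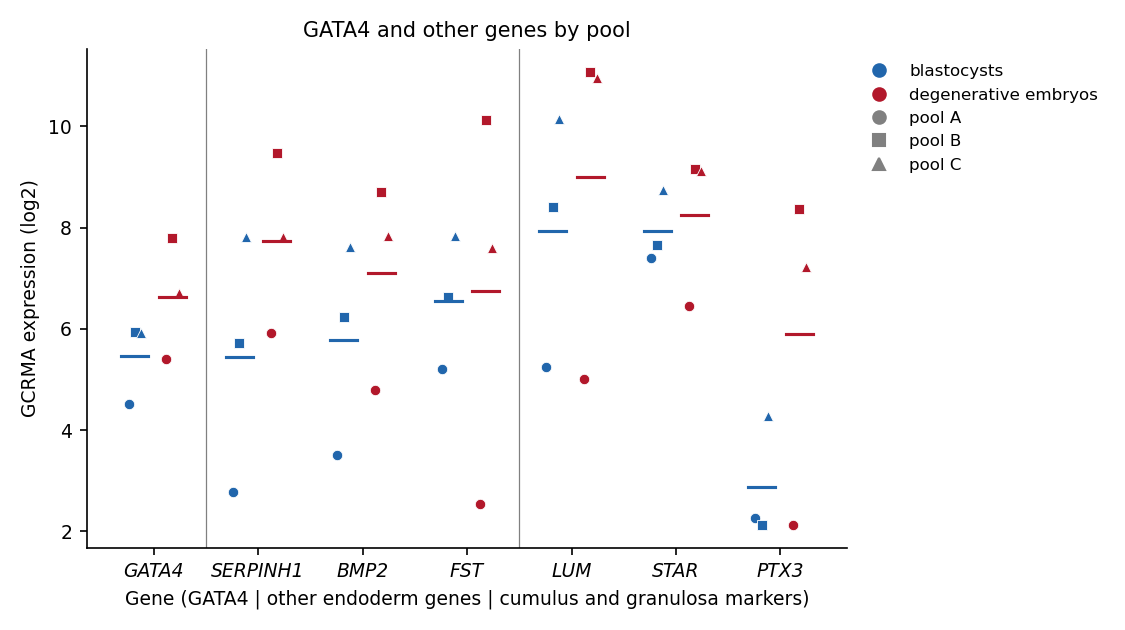
Log2 GCRMA expression (vertical axis) by pool for GATA4, for the endoderm list genes SERPINH1, BMP2 and FST, and for the cumulus and granulosa markers LUM, STAR and PTX3, chosen with their values known. Points are pools, shaped by letter, and horizontal lines mark group means. Degenerative pool B is the highest point for every gene shown, and the A pool is the lowest of the degenerative pools for each, which follows from the choice. Other genes of the same lists, such as HAS2, SERPINE2, COL4A1 and FN1, were highest in degenerative pool A and are not shown.

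To see which other genes had the most similar profiles, Pearson's r was taken over the 6 pools with 6153 other genes of a mean of at least 5. For GATA4 the nearest were FXYD6, a regulator of the sodium pump (r = 0.99), the histone gene H3-3A (r = 0.99) and CIAPIN1 (r = 0.99). For GATA6 they were BCAT2 (r = 0.98), VPS13D (r = 0.96) and ASB3 (r = 0.96), and ASB3 was also the nearest to PDGFRA (r = 0.97). For SPARC they were the histone gene H2AX (r = 0.99), CDK20 (r = 0.99) and MCAT (r = 0.99). For DAB2 they were PCNA, the sliding clamp of DNA replication (r = 0.99), MPZL2 (r = 0.99) and STX12 (r = 0.99), and for FGFR2 TMEM63A (r = 0.97), ZDHHC6 (r = 0.96) and EPHA1 (r = 0.96). With only 6 points, an r of at least 0.9 was reached by 239 genes for SPARC, 165 for GATA4, 163 for DAB2, 19 for FGFR2 and 16 each for GATA6 and PDGFRA, so these names are a description of the pools.

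The arrays of a group were similar but not equal. Over all probe sets tested, r between pools was 0.972 to 0.994 for blastocysts and 0.936 to 0.987 for degenerative embryos, and degenerative pool A had the lowest array weight, 0.145, where the others had 0.476 to 4.24. The array also carries control probe sets at the 3′ and 5′ ends of a few transcripts. The 3′ minus 5′ difference was 6.60 to 8.59 in blastocysts and 9.13 to 9.87 in degenerative embryos for eIF-4E, with no overlap and with the 5′ probe set near the floor in degenerative embryos, at 2.56 to 3.70, whereas for GAPDH it was 1.83 to 2.89 and 2.48 to 2.52. For actin it was lower in degenerative embryos, at 2.29 to 4.94 against 5.37 to 6.65, with the 5′ probe set again near the floor. The part of RNA quality or amplification in the values of the hypoblast lineage genes was not tested.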

How the data were processed

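RNA of 3 pools of blastocysts and 3 pools of degenerative embryos was amplified, labeled and hybridized to the Affymetrix Bovine Genome Array, a single array per pool. The methods describe 2 rounds of amplification and the labels name 1. The deposited log2 values were made by the authors with GCRMA, release 2.14.1 according to the processing notes of the submitters, which corrects background by probe sequence, normalizes by quantiles and summarises probe sets by median polish, so values near the floor are compressed. Arrays have no read depth, and the number of arrays limits the precision.

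Probe sets were named by the platform annotation, with current symbols looked up in a RefSeq gene table (ARS-UCD2.0). After leaving out 20 controls and 5079 probe sets that held the same value on every array, the remaining 18937 went into limma (version 3.58.1, R 4.3.3, lmFit, eBayes, Benjamini-Hochberg over all of them, adjusted p of at most 0.15). SAM, the authors' test, was rebuilt over all 20 relabelings of the pools (fudge factor 1.03e-08, share of unchanged probe sets 0.780) and called 67 probe sets. Both were tested on simulated data. Exact permutation tests used SciPy 1.17.1 and were two-sided. Because pools held different embryos, the p-values rest on pool-to-pool spread.

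The genes, lists and tests were chosen with earlier results of these data known. Of each list, up to 4 genes with the smallest limma p were named, and for each bright hypoblast lineage gene the 3 nearest profiles. Other genes were named after their values were seen. Deviations from group means of same-letter pools correlated at r = 0.373 for A, 0.180 for B and 0.275 for C, so the letter was also fitted as a block. The block was chosen from these values, since no matching of same-letter pools is described. No sequence is shown, since none was used here.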

Additional observations from a re-analysis of the deposited data

How the results depend on the processing

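None of the hypoblast lineage probe sets passed limma at an adjusted p of at most 0.15 under any of 13 other limma settings, with 0 called by SAM and 0 with the replicate block (smallest adjusted p 0.491). These were centring each array on its median, a filter on dim probe sets, keeping invariant probe sets, an intensity trend, array weights, the replicate block, leaving out each pool, and leaving out both A pools, the last chosen after the data were seen. The number of probe sets without overlap was 3 to 4 without any single pool, and 6 without both A pools, where 2 pools against 2 overlap less by construction. The signs of GATA4, FGFR2 (bright probe set), DAB2 (bright probe set) and SPARC were kept under these settings. For GATA6 the difference was -0.15 to 0.046 when single pools were left out, changing sign without the B pool of either group, and -0.22 with array weights. For the bright probe set of PDGFRA it was -0.26 to 0.24 when single pools were left out 0.0022 with centred arrays, -0.43 with array weights and -0.47 without both A pools. A dim probe set of PDGFRA was at -3.04e-04 without degenerative pool A, 0.68 at most without another pool, and -4.27e-04 without both A pools. In the gene lists, GAB1 was the 1 FGF and ERK gene called with array weights (1) and without degenerative pool A (0 to 1 over single pools left out), and COL3A1 was the 1 cumulus and granulosa marker called without degenerative pool A (0 to 1). No other list call changed. Over the whole array, 57 probe sets were called with array weights and 42 without degenerative pool A, against 4 in the main fit. COL3A1 held the same dim value, 3.96, in all 3 blastocyst pools. Where a change has no stated construction, the cause was not tested. The floor of the scale limits 9 of the 15 probe sets, whose group means lay under 5.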
